A study of Homo sapiens with 6 samples.

Results

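The genes described here encode amino acid transporters of 6 solute carrier families, SLC1, SLC6, SLC7, SLC36, SLC38 and SLC43. Members were transcript clusters (the probe groups that the array design assigns to 1 locus) with exactly 1 annotated symbol made of the family prefix and a number. SLC7A11, SLC38A9, SLC36A1 and pseudogenes were left out, and the cluster with the highest mean over the 6 arrays stood for each symbol. This gave 53 members among 18417 genes with 1 symbol. SLC43A3 lies on a cluster with several symbols and was not analysed here, and the same holds for other clusters that pool family symbols. SLC7A6OS, a neighbour of SLC7A6 that shares the prefix but is not named as a carrier, was not counted as a member.

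The samples were cultures of MDA-MB-231, an established human breast cancer line that lacks estrogen receptor, progesterone receptor and HER2 amplification and has mesenchymal features. There were 3 arrays of control cultures, which the titles call untreated and the treatment protocol describes as given vehicle, and 3 arrays of cultures exposed to 1 µM selamectin for 24 h. Selamectin, an avermectin, is given to pets against parasites, and the series title presents avermectins as inhibitors of the SIN3 corepressor. Per the labels, both groups grew in the same serum-containing DMEM with a stabilised glutamine source and non-essential amino acids added. A single cell line was used, and the design text calls the replicates independent without saying how the cultures were separated, so the p-values measure the spread between these samples.

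Amino acid transporters move glutamate, glutamine, neutral, cationic and aromatic amino acids across the plasma membrane and out of lysosomes. Sodium-driven carriers of SLC1, SLC6 and SLC38 concentrate their substrates. Exchangers of SLC7 trade an amino acid for another and pair with a heavy chain of the SLC3 family. Some SLC36 carriers are driven by protons, and SLC43 carriers let large neutral amino acids pass along their gradient. Several SLC6 members carry neurotransmitters, creatine, betaine or taurine rather than protein-building amino acids. In growing tumour cells these carriers feed protein synthesis, nucleotide synthesis and the lysosomal pathway that signals amino acid supply to the kinase complex mTORC1. When amino acids run short, the transcription factor ATF4 raises many of these carriers.

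Values are log2 expression values as deposited, and all differences are log2 differences, selamectin minus untreated. Array medians lay between 7.47 and 7.51. Across genes, which are not independent replicates, r ranged from 0.9949 to 0.9971 for arrays within a group. For arrays of different groups it ranged from 0.9913 to 0.9954, so the ranges overlapped. The first and second principal components held 45.8% and 20.8% of the variance. The list of the line's markers held 6 genes taken as high in the line and 6 taken as low. Mean log2 values, untreated and then selamectin, were 12.67 and 12.90 for VIM and 10.98 and 10.66 for EGFR, of the high markers. Of the low markers, they were 6.97 and 6.80 for ESR1, and 5.60 and 5.74 for PGR. They were 9.17 and 9.08 for ERBB2 and 13.41 and 13.49 for KRT18, also taken as low. The other markers of the list are not shown. Levels of different genes come from different probes and cannot be ranked, so these values do not test the identity of the line. Markers of leukocytes (9 genes), endothelium (7) and neural or glial cells (7) held no call in limma, with 0, 2 and 1 genes at an unadjusted p under 0.05. Of 8 fibroblast markers 1 rose, PDGFRB (0.34, limma adjusted p = 0.040). Over all genes, 4.69% were called in either direction and 19.9% had an unadjusted p under 0.05. The part of other cell types in the results was not tested. No detection calls were used, so it is not known which members were above background.

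Of the 53 transporters, 3 rose after selamectin and none fell past an adjusted p of 0.05 (limma, Benjamini-Hochberg over all 18417 genes). The 3 were SLC43A2, a facilitator of branched-chain and other large neutral amino acids, SLC6A9, the glycine transporter GlyT1, and SLC38A12, listed under the older name TMEM104. They make up 5.66% of the members, against 4.69% of all genes called in either direction 2.41% called higher and 2.28% called lower, so the share is near the background. At an unadjusted p under 0.05 in limma, 7 members were higher and 2 lower, beside 19.9% of all genes in either direction. The median difference of the members was 0.07, beside 0.04 over all genes, and 71.7% of the members had a positive difference, beside 63.0% of all genes. Of the members, 46 of 53 stayed within 0.25 log2 units of the untreated mean. Beyond it lay 7 members, beside 2870 of all 18417 genes. All 7 were among the 22 members at or above the median of mean level, where 2160 of 9218 genes lay beyond it. The standard error of a member's difference had a median of 0.092.

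**Figure D1:**
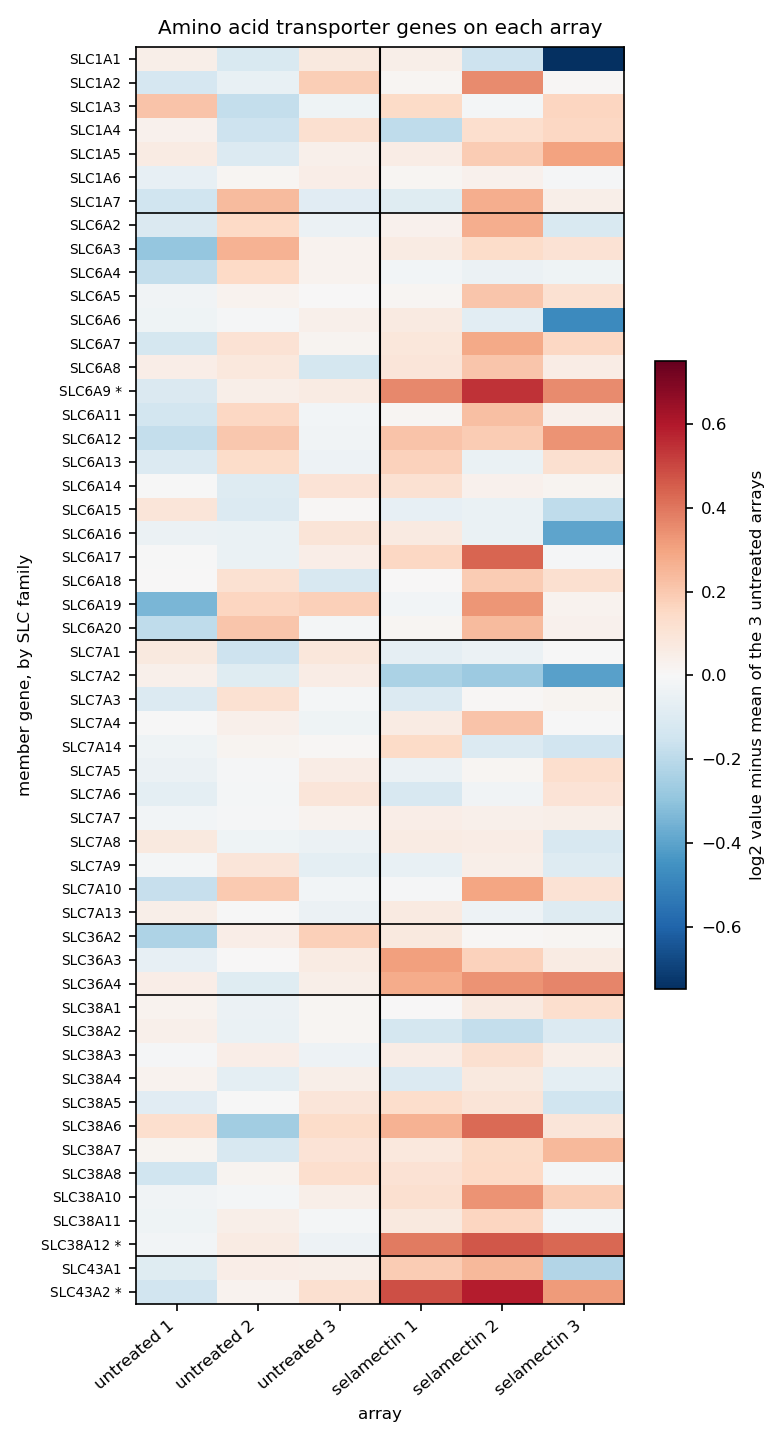
Colour gives the log2 value of each of the 53 members on each of the 6 arrays minus that gene's mean over the 3 untreated arrays; rows are grouped by SLC family and a star marks members past an adjusted p of 0.05. SLC6A9, SLC38A12 and SLC43A2 are red on all 3 selamectin arrays, SLC7A2 is blue on all 3, and SLC1A1 and SLC6A6 are darkest blue on selamectin array 3.

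SLC43A2 (transcript cluster 8011093) showed the largest difference among the members. Its log2 values were 10.96, 11.14 and 11.23 on untreated arrays 1 to 3, and 11.59, 11.70 and 11.43 on selamectin arrays 1 to 3. All 3 selamectin arrays lay above all 3 untreated arrays, with selamectin array 3 closest to them. The mean went from 11.11 ± 0.13 to 11.57 ± 0.13 (SD, n = 3), a 1.38-fold rise (log2 difference 0.46, 95% interval 0.25 to 0.68, limma adjusted p = 0.0266). The call was lost when any one of 5 arrays was dropped. The limma adjusted p was 0.114, 0.056 and 0.0579 on dropping untreated array 1, 2 or 3, and 0.0621 and 0.123 on dropping selamectin array 1 or 2. On dropping selamectin array 3 it was 0.00871, with a difference of 0.54.

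SLC6A9 (transcript cluster 7915543) takes up glycine, a precursor of glutathione, purines and one-carbon units. Its log2 values were 10.14, 10.28 and 10.31 on the untreated arrays and 10.60, 10.79 and 10.60 on the selamectin arrays. The groups did not overlap, and the gap between them was wider than the spread inside either group. The mean went from 10.24 ± 0.09 to 10.66 ± 0.11 (SD, n = 3), a 1.34-fold rise (log2 difference 0.42, 95% interval 0.21 to 0.63, limma adjusted p = 0.0317). This call, too, held only on dropping selamectin array 3 (0.0211 in limma). Dropping untreated array 1, 2 or 3 gave an adjusted p of 0.133, 0.0531 and 0.0943, and dropping selamectin array 1 or 2 gave 0.0533 and 0.15.

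SLC38A12 (transcript cluster 8009693) had log2 values of 8.20, 8.28 and 8.18 on the untreated arrays and 8.61, 8.69 and 8.65 on the selamectin arrays. These were tight groups with a clear gap. The mean went from 8.22 ± 0.05 to 8.65 ± 0.04 (SD, n = 3), a 1.35-fold rise (log2 difference 0.43, 95% interval 0.24 to 0.62, limma adjusted p = 0.0215). The call held without untreated array 2 (0.0305) or selamectin array 3 (0.03). It was lost without untreated array 1 (adjusted p = 0.083), untreated array 3 (0.105), selamectin array 1 (0.0501) or selamectin array 2 (0.101). When every cluster on the array entered the fit, none of these 3 transporters passed in limma (adjusted p = 0.0676 for SLC38A12, 0.094 for SLC6A9 and 0.0992 for SLC43A2).

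**Figure D2:**
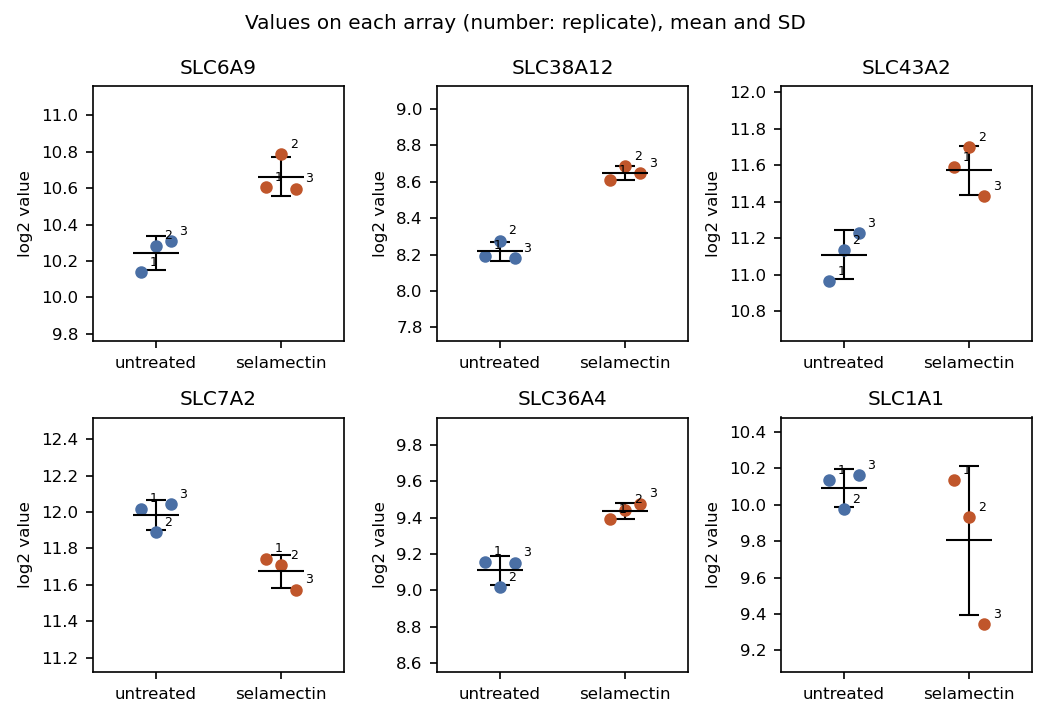
Log2 values of 6 transporters on each array, with the replicate number beside each point and the group mean and SD (n = 3) in black; all panels span 1.4 log2 units. The groups are separate for SLC6A9, SLC38A12, SLC43A2, SLC7A2 and SLC36A4, whereas those of SLC1A1 overlap, with selamectin array 3 lowest at 9.34.

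The sequence before the start of the 3 transporters that rose is shown because these members moved the same way and their promoters can be compared. RefSeq sequences (GRCh38.p14) of the 250 bases before the annotated start are given 5′ to 3′ on the gene's strand, with CCAAT boxes, read on either strand, in capitals. SLC43A2 has 3 annotated starts, and the most upstream one is printed.
SLC43A2, chr17:1628835-1629084, minus strand: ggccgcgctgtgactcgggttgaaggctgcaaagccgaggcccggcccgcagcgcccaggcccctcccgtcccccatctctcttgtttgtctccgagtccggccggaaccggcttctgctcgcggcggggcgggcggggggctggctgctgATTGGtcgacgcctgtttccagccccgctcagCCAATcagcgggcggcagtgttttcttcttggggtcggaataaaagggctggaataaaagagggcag
SLC6A9, chr1:44031463-44031712, minus strand: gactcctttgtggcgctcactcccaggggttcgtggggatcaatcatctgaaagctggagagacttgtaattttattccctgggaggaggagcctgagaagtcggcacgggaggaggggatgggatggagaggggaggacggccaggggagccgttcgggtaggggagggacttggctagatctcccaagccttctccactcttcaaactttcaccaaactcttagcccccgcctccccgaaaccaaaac
SLC38A12, chr17:74776249-74776498, plus strand: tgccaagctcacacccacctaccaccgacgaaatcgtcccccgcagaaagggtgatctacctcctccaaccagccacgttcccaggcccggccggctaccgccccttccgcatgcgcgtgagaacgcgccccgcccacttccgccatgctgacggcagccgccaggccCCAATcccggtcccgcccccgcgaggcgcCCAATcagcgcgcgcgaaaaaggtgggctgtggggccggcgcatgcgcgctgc
The stretch of SLC43A2 held 2 CCAAT boxes, 1 on each strand and 99 and 67 bases before the start, and that of SLC38A12 held 2, at 82 and 53 bases. The stretch of SLC6A9 held none, and its G and C content was 57.6%, against 66.8% for SLC43A2 and 70.8% for SLC38A12. In windows of 250 bases before and 50 after the start, a CCAAT box (letters CCAAT, both strands) was found in 34.6% of all 35116 promoters in the table and in 17 of the 59 promoters listed for 42 members; this motif was added after the values were seen. The other 11 members had no entry. The letters of the MYC-type E-box, CACGTG, and of the C/EBP-ATF response element, TGATGNAAN, were in none of the windows of SLC43A2, SLC6A9 or SLC38A12.

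Just outside the threshold stood SLC7A2 and SLC36A4. SLC7A2, the arginine and lysine transporter CAT2, had log2 values of 12.02, 11.89 and 12.04 on the untreated arrays and 11.74, 11.71 and 11.57 on the selamectin arrays. All selamectin values lay below all untreated values. The difference was -0.31 (95% interval -0.49 to -0.13, limma adjusted p = 0.057). It passed as lower with a second quantile normalization (-0.36, adjusted p = 0.029), when dim genes were filtered out at the 25th percentile (0.0461) or the median (0.0403) of mean level, and with array weights (0.00544). SLC36A4, a high-affinity transporter of proline and tryptophan, had log2 values of 9.16, 9.02 and 9.15 untreated and 9.39, 9.44 and 9.48 with selamectin, again without overlap. Its difference was 0.33 (95% interval 0.13 to 0.53, limma adjusted p = 0.065), and it passed when only genes above the median level were tested (0.041), without the eBayes trend (0.041) and with array weights (0.0185).

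**Figure D3:**
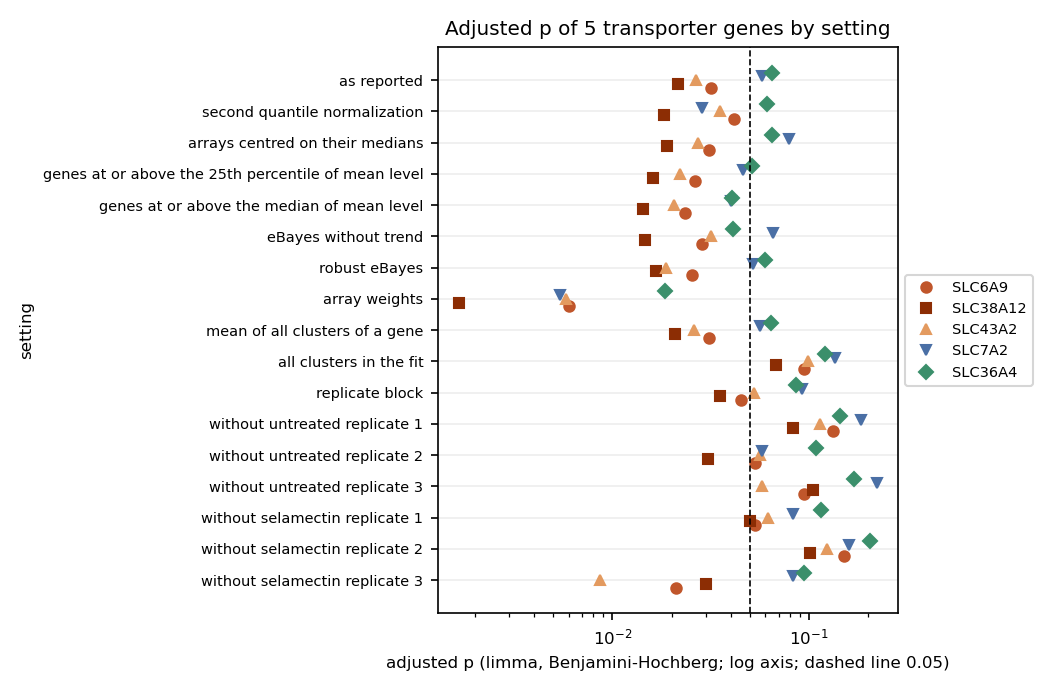
Adjusted p (limma, log axis) of 5 transporters as reported and under each alternative setting, with the 0.05 threshold as a dashed line. SLC6A9, SLC38A12 and SLC43A2 lie left of the line in most settings with all 6 arrays and right of it when most single arrays are left out or all clusters are fitted; SLC7A2 and SLC36A4 cross to the left in some settings.

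In all, the selamectin and untreated arrays did not overlap for 9 of the 53 members, or 17.0%, beside 25.3% of all genes. They lay above for 7 members (13.2%, beside 16.0% of all genes) and below for 2 (3.77%, beside 9.30%). The 7 were SLC43A2, SLC6A9, SLC38A12, SLC36A4, SLC36A3, SLC38A10 and SLC7A7, and the 2 were SLC7A2 and SLC38A2. SLC7A7, a light chain for cationic amino acid export, is named for this count after its values were seen; its difference was 0.04 and its adjusted p in limma 0.70.

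**Figure D4:**
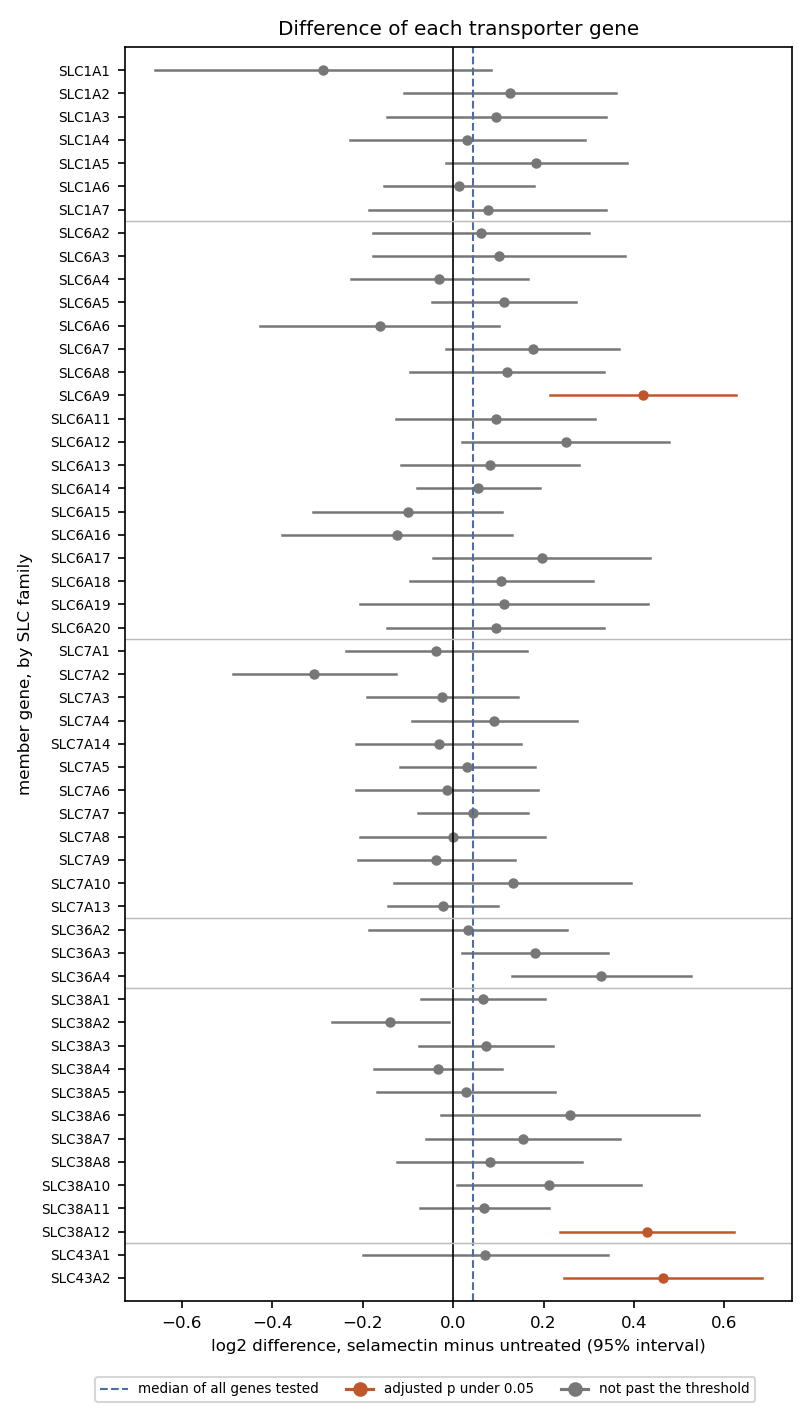
Points are the log2 differences of the 53 members, selamectin minus untreated, with the 95% interval of the limma fit (3 arrays per group); the dashed line is the median of all genes tested, 0.04. The 3 members past the threshold, in orange, lie between 0.42 and 0.46, and most other intervals include 0.

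Among the 7 SLC1 members no call was made in limma, with 0 at an unadjusted p under 0.05, and differences ran from -0.29 to 0.18. Family counts here and below stand beside 2.41% of all genes called higher, 2.28% called lower and 19.9% at an unadjusted p under 0.05. SLC1A1, the neuronal and epithelial glutamate and cysteine transporter EAAT3, had log2 values of 10.14, 9.97 and 10.16 untreated and 10.14, 9.93 and 9.34 with selamectin. Selamectin array 1 lay among the untreated values, selamectin array 2 just below them and selamectin array 3 far below. The difference of -0.29 (limma adjusted p = 0.38) came to -0.06 without that array. SLC1A5, the glutamine exchanger ASCT2, had log2 values of 11.27, 11.11 and 11.25 untreated and 11.27, 11.40 and 11.52 with selamectin, with overlap at selamectin array 1 (difference 0.18, 95% interval -0.02 to 0.38, adjusted p = 0.29). Its second cluster, less bright, differed by 0.35, from 7.85 ± 0.38 to 8.20 ± 0.09 (SD, n = 3). SLC1A2, the main glutamate transporter of astrocytes, had a difference of 0.13 (adjusted p = 0.55).

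Of 18 SLC6 members, 1 rose, SLC6A9, and 1 other had an unadjusted p under 0.05 in limma, SLC6A12, the betaine and GABA transporter BGT1. SLC6A12 had log2 values of 6.66, 7.04 and 6.81 untreated and 7.05, 7.03 and 7.17 with selamectin, so that untreated array 2 reached into the selamectin range. Its difference was 0.25 (95% interval 0.02 to 0.48, limma adjusted p = 0.21), and it passed only with array weights (0.039). The proline transporter SLC6A7 differed by 0.18 (adjusted p = 0.29). SLC6A6, which takes up taurine, had log2 values of 12.10, 12.12 and 12.17 untreated and 12.20, 12.05 and 11.65 with selamectin. Selamectin array 1 lay above the untreated values, selamectin array 2 just below and selamectin array 3 furthest below, and the difference of -0.16 (adjusted p = 0.49) became -0.0052 without it. SLC6A16, an orphan member, went the same way, with a difference of -0.12 that became 0.01 without that array. The family's other members, among them the carriers of noradrenaline, dopamine and serotonin, lay between -0.10 and 0.20.

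The 12 SLC7 members held no call in limma, and 1 had an unadjusted p under 0.05, SLC7A2. Their median difference was -0.02, and 4 had a positive and 8 a negative difference, beside 63.0% of all genes with a positive one. Apart from SLC7A2, the cationic carriers lay between -0.04 and 0.09, with SLC7A1, the widely expressed arginine transporter CAT1, at -0.04 (95% interval -0.24 to 0.16) and the orphan carrier SLC7A4 at 0.09 (limma adjusted p = 0.58). SLC7A14, a lysosomal member, differed by -0.03 in its brighter cluster and by 0.08 in the other. The light chains that pair with SLC3 proteins lay between -0.04 and 0.13, the highest being the alanine and serine exchanger SLC7A10. SLC7A5, the LAT1 light chain for leucine and other large neutral amino acids, had log2 values of 13.28, 13.31 and 13.37 untreated and 13.27, 13.33 and 13.45 with selamectin, a difference of 0.03 (95% interval -0.12 to 0.18). SLC7A1 and SLC7A5 are named for their known roles, after their values were seen.

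The 3 SLC36 members held no call in limma, and 2 had an unadjusted p under 0.05, beside 19.9% of all genes. Next to SLC36A4 (0.33) stood SLC36A3, an orphan relative, with log2 values of 5.33, 5.39 and 5.44 untreated and 5.69, 5.56 and 5.45 with selamectin. Its groups nearly touched, with selamectin array 3 just above untreated array 3, and its difference was 0.18 (limma adjusted p = 0.20). SLC36A2, a glycine and proline transporter of kidney, stood at 0.03, and its sign turned with a second quantile normalization (-0.02), array weights (-0.09) and without untreated array 1 (-0.08).

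Of 11 SLC38 members, 1 rose, SLC38A12, and 3 in all had an unadjusted p under 0.05 in limma, with 9 positive and 2 negative differences. Of all genes, 19.9% had an unadjusted p under 0.05 and 63.0% a positive difference. SLC38A2, the SNAT2 carrier that cells raise when amino acids are withdrawn, had log2 values of 13.77, 13.68 and 13.75 untreated and 13.60, 13.55 and 13.63 with selamectin. All its selamectin values were below all untreated ones, and the difference was -0.14 (95% interval -0.27 to -0.0094, limma adjusted p = 0.22); with array weights it passed as lower (0.035). SLC38A10 had log2 values of 9.65, 9.66 and 9.72 untreated and 9.80, 10.01 and 9.86 with selamectin, a difference of 0.21 (adjusted p = 0.23). SLC38A6 differed by 0.26 (adjusted p = 0.30), with untreated array 2 at 8.74 apart from untreated arrays 1 and 3 at 9.12 and 9.13. SLC38A1, the SNAT1 glutamine carrier, named for its known role after its value was seen, stood at 0.07 (95% interval -0.07 to 0.20).

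Of the SLC43 family, SLC43A1, the LAT3 facilitator whose substrates overlap those of SLC43A2, had log2 values of 9.94, 10.08 and 10.07 untreated and 10.22, 10.27 and 9.81 with selamectin. Selamectin arrays 1 and 2 lay above the untreated arrays and selamectin array 3 below them. The difference was 0.07 (limma adjusted p = 0.78) over all arrays and 0.22 without selamectin array 3. Whether the differences of SLC43A1 and SLC43A2 differ from each other was not tested.

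The membership rule left out 3 carriers. SLC7A11, the cystine and glutamate exchanger, fell by 0.68 (1.60-fold lower, limma adjusted p = 0.0096), a call lost without untreated array 1 (0.0531), without untreated array 3 (just above 0.05) and with all clusters in the fit (0.063). SLC36A1 and SLC38A9, carriers of the lysosomal membrane, stood at -0.02 and -0.01. Among 9 measured heavy chains and other partner proteins, 2 rose and none fell, beside 2.41% of all genes called higher and 2.28% called lower. No partner was lower at an unadjusted p under 0.05 in limma. The 2 that rose were CD44, the hyaluronan receptor whose variant form binds SLC7A11 (0.42, limma adjusted p = 0.020), and ARL6IP5, a membrane protein that binds SLC1A1 (0.34, 0.035). The adjusted p of CD44 in limma was 0.087, 0.0719, 0.0644 and 0.0766 on dropping untreated array 1, untreated array 3, selamectin array 1 or selamectin array 2. For ARL6IP5 it was 0.134, 0.121, 0.0936 and 0.0731 in the same order. Both held on dropping either other array, and both were lost with all clusters in the fit (0.065 and 0.106). SLC3A2, the CD98 heavy chain that brings SLC7A5, SLC7A11 and others to the cell surface, had log2 values of 13.10, 13.15 and 13.11 untreated and 12.97, 13.02 and 12.99 with selamectin. These did not overlap, and the difference was -0.12 (95% interval -0.26 to 0.01, adjusted p = 0.29). SLC3A1 stood at -0.02.

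Among 24 amino acid carriers of other families, 1 rose and 1 fell, beside 2.41% of all genes called higher and 2.28% called lower. Their median difference was 0.09, beside 0.04 over all genes. SFXN3, a sideroflexin of the inner mitochondrial membrane related to the serine carrier SFXN1, rose 1.61-fold, from 9.46 ± 0.05 to 10.15 ± 0.06 (SD, n = 3, limma adjusted p = 0.0043). MFSD12, a carrier needed for cysteine entry into melanosomes and lysosomes, was 1.47-fold lower, from 12.20 ± 0.08 to 11.64 ± 0.15 (adjusted p = 0.0096). Both calls held whichever array was left out, and with all clusters in the fit SFXN3 held and MFSD12 did not (0.0555). SLC25A38, the mitochondrial glycine carrier, stood just outside at 0.34 (adjusted p = 0.051).

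A list of 32 genes joined those of amino acid sensing with mTORC1 subunits (MTOR, RPTOR and MLST8) and the regulators RHEB, TSC1 and TSC2. Of these, 3 rose and none fell, beside 2.41% of all genes called higher and 2.28% called lower. In limma, 4 were higher and 1 lower at an unadjusted p under 0.05, beside 19.9% of all genes in either direction. The median difference was 0.06, beside 0.04 over all genes. KPTN (0.53, limma adjusted p = 0.015) and ITFG2 (0.39, 0.047) encode subunits of KICSTOR, the complex that anchors the mTORC1 inhibitor GATOR1 at lysosomes. SEH1L (0.36, 0.049) is shared by the GATOR2 complex and the nuclear pore. KICS2, another KICSTOR subunit, stood at -0.30 (adjusted p = 0.11), and is named after its value was seen. The number that rose was between 0 and 2 whichever array was left out. Without untreated array 1 the adjusted p was 0.0696 for KPTN, 0.155 for ITFG2 and 0.171 for SEH1L, and SEH1L lost its call whichever array was left out. KPTN lost it also without untreated array 3 (just above 0.05) or selamectin array 2 (0.0685), and ITFG2 without any one array except selamectin array 3, at up to 0.185. With all clusters in the fit none of the 3 passed (0.0751, 0.111 and 0.109).

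Genes of the amino acid deprivation response held no call in limma among 26 measured, with 4 higher and 4 lower at an unadjusted p under 0.05. TRIB3, an ATF4-induced pseudokinase, stood at 0.44 (limma adjusted p = 0.052), DDIT3, the stress transcription factor CHOP, at 0.61 (0.061), and CHAC1, a glutathione-degrading enzyme under ATF4, at -0.45 (0.068). ATF4 itself has 2 clusters. The brighter one had log2 values of 12.61, 12.48 and 12.60 untreated and 12.38, 12.45 and 12.27 with selamectin, without overlap. Its difference was -0.20 (limma adjusted p = 0.17), and the other cluster was not examined on its own. With the clusters of each gene averaged, 1 gene of this list and 1 of the regulators below passed as lower. The genes behind these counts were not recorded. Averaging alters the values only of genes with several clusters. These were ATF4, MTHFD2 and PSPH in this list, and ATF4 and ESR1 among the regulators. ESR1 stood at -0.17 in its brighter cluster (limma adjusted p = 0.41). ATF4 may therefore be the gene that passed as lower in both lists. DDIT3 and CHAC1 had opposite signs, and neither passed in the fit over the brightest clusters. Among 23 enzymes that use the transported amino acids, 1 rose and none fell, beside 2.41% of all genes called higher and 2.28% called lower. It was ODC1, the ornithine decarboxylase of polyamine synthesis (1.57-fold, from 12.28 ± 0.17 to 12.93 ± 0.09, SD, n = 3, limma adjusted p = 0.0053). The call held whichever array was left out. GLUL, the glutamine synthetase, stood at -0.30 (0.19). None of 13 transcription regulators tied to these transporters passed in limma, with 2 higher and 3 lower at an unadjusted p under 0.05; the MYC antagonist MXD1 stood at 0.27 (0.17) and the lysosomal and melanocyte factor MITF at -0.24 (0.16).

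**Figure D5:**
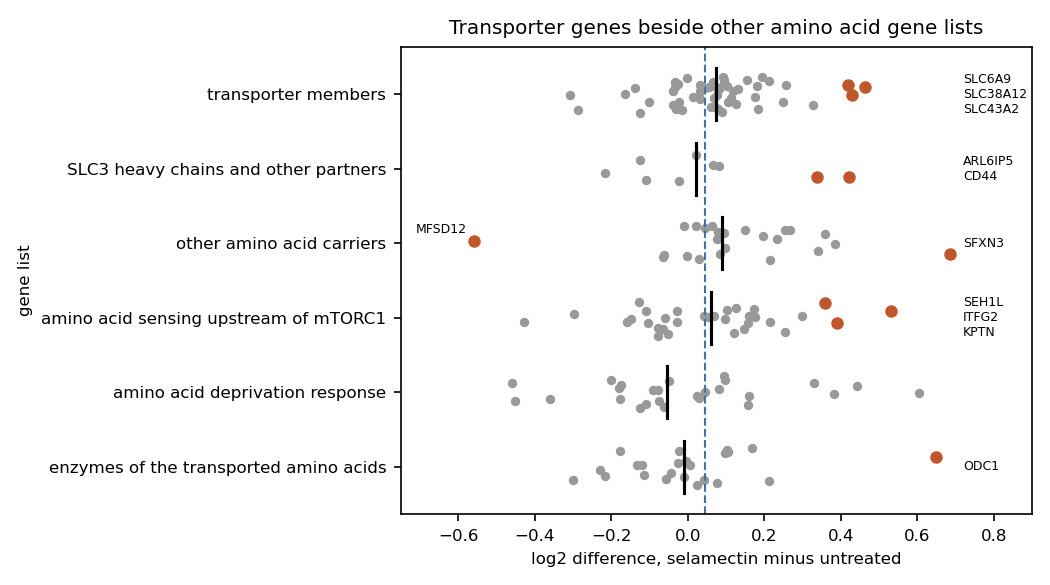
Each point is the log2 difference of 1 gene, selamectin minus untreated, for the 53 transporters and for 5 related lists; black bars are list medians, the dashed line is the median of all genes (0.04), and orange points, named at the side, passed an adjusted p of 0.05 in limma. The medians lie between -0.06 and 0.09, and no list holds more than 3 genes that rose.

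The letters of the C/EBP-ATF response element, the site bound by ATF4 dimers, were searched in the same promoter windows because the deprivation response acts on these carriers through it. TGATGNAAN (both strands) was found for 5 of 42 members with a promoter entry, beside 4.45% of all genes in the table, and in 5 of the members' 59 promoters, beside 3.61% of all 35116. The matches, in capitals, with 10 bases on each side, are given 5′ to 3′ on the strand that carries the motif (RefSeq, GRCh38.p14). None overlapped a CCAAT box.
SLC1A3, chr5:36596358-36596386, plus strand: aggaaatgacTGATGCAAAgcagggttaa
SLC1A4, chr2:64989381-64989409, minus strand: cggctggagaTGATGCAAAcgggagccgc
SLC1A5, chr19:46784893-46784921, minus strand: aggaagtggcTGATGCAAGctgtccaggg
SLC38A1, chr12:46266502-46266530, minus strand: cagacccgaaTGATGAAAAgggatcagct
SLC7A1, chr13:29595663-29595691, minus strand: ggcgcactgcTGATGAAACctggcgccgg
The core letters were TGATGCAAA in SLC1A3 and SLC1A4, TGATGCAAG in SLC1A5, TGATGAAAA in SLC38A1 and TGATGAAAC in SLC7A1. The differences of these 5 genes after selamectin were 0.10, 0.03, 0.18, 0.07 and -0.04, and none passed in limma. The E-box CACGTG was found for 9 of the 42 members, among them SLC7A5 and SLC1A5, beside 8.77% of all genes in the table. A match is a match of letters and was not tested as a binding site.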

How the data were processed

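RNA from 3 untreated and 3 selamectin cultures was measured on Affymetrix whole-transcript arrays. The authors deposited log2 values for 33297 transcript clusters; the log base is taken from the range of the values. Expression Console, RMA and Transcriptome Analysis Console, all for Affymetrix data, are listed in the submitters' processing notes, without versions or settings. The build was not given in the sources used here. The deposited arrays have nearly equal medians, so a shift shared by all genes would not be seen.

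Groups came from the sample titles. Of the clusters, 19460 had 1 symbol, 1754 had several and 12083 had no entry in the platform annotation; 19429 matched a RefSeq gene table by Entrez number. The brightest cluster per gene left 18417 genes. The test was the moderated one of limma (version 3.58.1, R version 4.3.3; lmFit, then eBayes with trend), selamectin minus untreated, two-sided, with Benjamini-Hochberg adjustment over all genes, no filter on dim genes and no replicate block. Scanner files and scan batches were not used. The number of arrays limits the precision; the median standard error of a difference was 0.094.

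The fit was tested on data simulated for this comparison, with independent normal noise at the fit's own variances and 200 of 18417 genes changed. It recovered 82% of differences of 0.5 and 100% of those of 1, with 12 false calls among 192. The simulated sizes were larger than the differences of the 3 transporters that rose (0.42 to 0.46), so recovery at those sizes is not known. Fewer genes were changed than the 864 called in the data, and an array that stands apart was not simulated. These shares may therefore not hold for the arrays used here. The members and lists were chosen with earlier results of these data known. Named members are those past the threshold, the 3 with the smallest p in each family, the 5 largest positive and 5 largest negative differences, and those with a second cluster; from each other list, genes past the threshold and up to 3 with the smallest p. Alternatives were another normalization, centring, filters, eBayes settings, array weights, averaged or all clusters, a block, another threshold and leaving out each array.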

Additional observations from a re-analysis of the deposited data

How the results depend on the processing

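The differences of SLC43A2, SLC6A9 and SLC38A12 stayed positive in all 16 alternatives run, but their calls did not: 7, 6 and 5 of these lost the call. The number of transporters that rose, 3, was 5 with array weights, 0 with all clusters in the fit and between 0 and 3 when single arrays were left out. The number that fell, 0, was 1 with a second quantile normalization, with either filter on dim genes and at an adjusted p of 0.10, 2 with array weights, and 0 whichever array was left out. Over all genes, 444 rose and 420 fell. With array weights, which gave untreated array 3 a weight of 5.11, this was 1822 and 1464. At an adjusted p of 0.10 it was 879 and 723. With all clusters in the fit the numbers were 104 and 145. That fit held every transcript cluster, also those without a gene symbol or with several. Its numbers may therefore count clusters and do not share the base of the others. Leaving out single arrays gave between 76 and 685 rises and between 100 and 464 falls. The cause of these changes was not tested.

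For partner proteins, 1 rose with a second quantile normalization or a replicate block and 0 with all clusters (between 0 and 2 without single arrays; 0 fell in each). For other carriers, 3 rose with either filter, without the eBayes trend and at 0.10, 2 with a robust fit and 4 with array weights, and 0 fell with all clusters (1 to 2 rose and 1 fell without single arrays). For the sensing and mTORC1 genes, 0 rose with all clusters and 1 with the replicate block, and 1 fell with array weights (0 to 2 rose and 0 fell without single arrays). For the deprivation response, 1 rose with centred arrays or a robust fit, 2 with either filter or at 0.10 and 4 with array weights, while 1 fell with the filter at the median, with averaged clusters or at 0.10 and 4 with array weights (0 to 3 rose and 0 fell without single arrays). For enzymes, 2 fell with array weights (1 rose and 0 to 1 fell without single arrays). For regulators, 1 rose and 2 fell with array weights and 1 fell with averaged clusters (0 without single arrays).

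The titles number both groups 1 to 3. Deviations of same-numbered arrays from their group means correlated at -0.011, 0.242 and -0.139 across genes. For arrays with different numbers the values lay between -0.206 and 0.299. Deviations within a group of 3 are tied to each other, so these values cannot settle whether the numbers pair the arrays. With the number as a replicate block 2 transporters rose, SLC43A2 losing its call (limma adjusted p = 0.0525), and 307 genes rose and 343 fell.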
